A study of Mus musculus with 6 samples.

Results

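The Nr4a and Egr immediate early genes were examined in ATAC-seq peak lists of mouse brown pre-adipocytes, the precursors of brown fat cells. The genes were Nr4a1, Nr4a2, Nr4a3, Egr1, Egr2, Egr3 and Ier2, 7 of 21883 protein-coding genes. A peak belonged to a gene where its summit lay inside the gene, or where the nearest end of any coding gene was an end of it and lay within 100 kb. This gave 96 of 192614 peaks over the 6 libraries, which merged into 25 of 68913 regions. All 7 genes were searched and 6 had a peak, since Egr2 had none in any library. The regions were tied to genes by position alone, not by an effect on transcription.

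The study compared wild-type cells of a line labelled BAT at day 0 with cells at day 1 of brown adipocyte differentiation, with 3 libraries per day. The day 1 labels name only the differentiation, and no RUNX-deleted sample was analysed here although the title of the series concerns such deletions. The labels do not give the inducing medium, the origin of the line or whether replicates were separate cultures. Every p-value below is thus set against library-to-library spread alone, and that spread may be technical.

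Immediate early genes are transcribed within minutes of a stimulus, without new protein synthesis, from promoters that are often already accessible. The Nr4a genes encode orphan nuclear receptors, which bind DNA as monomers or dimers and respond to cAMP in many tissues, brown fat among them. The Egr genes encode zinc finger transcription factors switched on through serum response factor and its ternary complex partners, and Ier2 encodes a nuclear protein induced by the same stimuli. Cyclic AMP acts on such promoters through CREB, which binds the cAMP response element (CRE).

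RefSeq promoter windows (GRCm38, the assembly that mm10 names) matched 4 of the 7 genes, Nr4a1, Nr4a2, Nr4a3 and Egr2. The 250 bases before the start are shown for the Nr4a genes because their windows held peaks, and for Egr2 because its windows held none. Capitals mark the CRE core TGACG on either strand, the CArG box bound by serum response factor, and the EGR-type motif GCGGGGGCG. The windows lie on chromosome 15 (plus strand, 101266596 to 101266845), chromosome 2 (minus strand, 57124004 to 57124253), chromosome 4 (plus strand, 48045055 to 48045304) and chromosome 10 (plus strand, 67537619 to 67537868), in that order.
Nr4a1: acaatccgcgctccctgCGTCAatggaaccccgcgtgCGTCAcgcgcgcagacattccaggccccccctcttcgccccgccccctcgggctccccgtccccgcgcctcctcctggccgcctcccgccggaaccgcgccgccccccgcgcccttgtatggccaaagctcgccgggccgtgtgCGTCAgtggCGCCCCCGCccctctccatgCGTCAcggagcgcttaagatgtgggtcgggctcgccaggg
Nr4a2: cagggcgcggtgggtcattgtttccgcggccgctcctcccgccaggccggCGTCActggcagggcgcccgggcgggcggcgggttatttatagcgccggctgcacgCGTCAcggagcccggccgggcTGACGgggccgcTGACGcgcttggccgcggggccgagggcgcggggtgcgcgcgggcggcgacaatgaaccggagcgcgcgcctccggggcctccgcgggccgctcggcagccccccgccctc
Nr4a3: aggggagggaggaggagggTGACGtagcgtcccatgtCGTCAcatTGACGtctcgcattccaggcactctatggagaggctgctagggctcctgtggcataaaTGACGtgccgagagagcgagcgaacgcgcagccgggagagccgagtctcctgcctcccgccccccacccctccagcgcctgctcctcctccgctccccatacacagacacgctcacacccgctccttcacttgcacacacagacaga
Egr2: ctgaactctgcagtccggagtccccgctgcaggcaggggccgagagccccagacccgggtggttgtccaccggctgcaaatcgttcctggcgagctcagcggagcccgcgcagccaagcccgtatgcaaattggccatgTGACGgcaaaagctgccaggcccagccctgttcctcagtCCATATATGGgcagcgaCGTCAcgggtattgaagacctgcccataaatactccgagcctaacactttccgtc

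The CRE core stood 4 times in the window of each of the 3 Nr4a genes. Of 21262 windows of coding genes, 20.2% held at least 1 core and 40 windows, or 0.188%, held at least 4. A full CRE, TGACGTCA, was in none of the 3 and in 1.92% of all windows. The Nr4a1 window also held GCGGGGGCG on the other strand, from 60 to 52 bases before the start, where it overlaps a GC box (GGGCGG). Of all windows, 3.41% held GCGGGGGCG. The printed Egr2 window held a CArG box from 72 to 63 bases before the start and 2 CRE cores. Of all windows, 1.39% held a CArG box and 4.85% at least 2 cores. Egr2 has other annotated windows, and those at starts 67535499 and 67537566 held no core, the first of them also no CArG box. A letter match does not show that a factor bound there.

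Libraries held 8127635 to 11011889 fragments at day 0 and 4919755 to 7302457 at day 1, and 39211 to 55511 against 12556 to 23274 peaks. Day 1 replicate 3 stood apart, with the fewest peaks for its depth, 1719 per 1000000 fragments against 4079 to 5167 in the others. Fewer fragments and day 1 cannot be told apart in the deposited lists, so counts are also given for equal lists, the 12556 strongest peaks of each library by q. In bulk ATAC-seq, fewer cells with an open site and less opening per cell cannot be told apart. Gene-end peaks, with a summit within 1 kb of either end of a gene, lay at 6, 5 and 5 of 12 preadipocyte and fibroblast marker genes at day 0 and 3, 4 and 2 at day 1. Fn1 had one in all 6 libraries, and Pdgfra, Cd34, Thy1, Dlk1, Lum and Zfp423 in none. Of 5 pericyte and smooth muscle markers 4, 2 and 3 had such a peak at day 0 and 0, 1 and 0 at day 1, with Rgs5 at 0. Of 7 immune markers 1 to 2 had one at day 0 and 0 at day 1, with Ptprc at 0. Of 6 endothelial markers 1 had one in each day 0 library and 0 to 1 at day 1, with Pecam1 and Cdh5 at 0, of 4 skeletal muscle markers 0 to 1 and 0, and of 4 neural and Schwann markers 1 to 3 and 1, with Sox10 at 0. Most of these marker counts were lower at day 1 in the deposited lists, as were the counts of the genes studied, and their part in the results was not tested. Of 7 brown adipocyte markers 2, 1 and 2 had one in day 0 lists and 0, 1 and 0 in day 1 lists, and Ucp1, Cidea, Dio2, Adrb3 and Prdm16 had none in any library. Of 7 mature adipocyte markers 2, 3 and 2 had one in day 0 lists and 3, 4 and 4 in day 1 lists. Lpl had one in all 6, and Cd36 and Lipe in none. In equal lists the mature markers numbered 1, 0 and 0 against 3, 3 and 4 (exact permutation p = 0.1, n = 3 per day) and did not overlap between the days. The preadipocyte and fibroblast markers there numbered 2, 2 and 2 against 1, 2 and 2. Brown adipocyte markers numbered 1, 0 and 1 against 0, 0 and 0, and pericyte and smooth muscle markers 0, 0 and 1 against 0, 0 and 0. Immune, endothelial and skeletal muscle markers stood at 0 in every equal list, and neural and Schwann markers at 1.

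The first comparison asks whether the 7 genes carried more peaks on 1 day. Deposited lists held 24, 19 and 18 such peaks at day 0, whereas day 1 lists had 12, 13 and 10. Every day 0 library lay above every day 1 library, with means of 20.3 and 11.7 (exact two-sided permutation p = 0.1, the smallest that 3 libraries against 3 can give). Scaled to 1000000 fragments, day 0 libraries held 2.18, 2.34 and 1.97 and day 1 libraries 2.44, 2.32 and 1.37, and the days overlapped (exact permutation p = 0.9). As a share of all peaks in the list, the order turned, at 0.0432%, 0.0452% and 0.0459% for day 0 and 0.0598%, 0.0559% and 0.0796% for day 1, with every day 1 library above every day 0 library. The day 1 lists were also shorter, and the share was not compared with that of other genes. In equal lists each library had 9 such peaks except day 1 replicate 3, which had 10 (exact permutation p = 1). With equal lists ranked by fold enrichment, the day means were 5 and 7.33 (exact permutation p = 0.3). Without day 1 replicate 3 and with lists of 20069 peaks, the day means were 12.7 and 11.0 (exact permutation p = 0.4), which turns the sign of the difference.

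**Figure D1:**
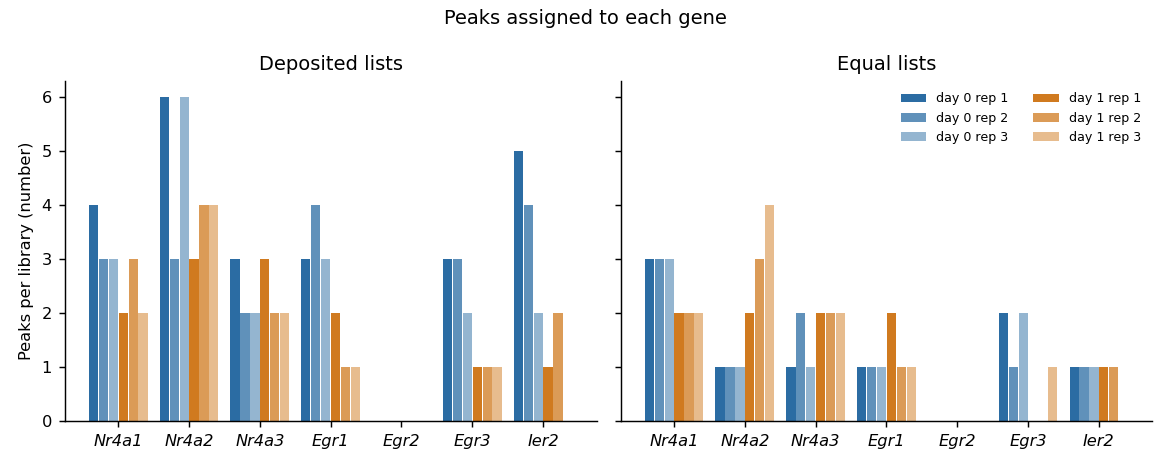
Number of peaks assigned to each gene in each library, in the deposited lists (left) and in equal lists of 12556 peaks (right); each bar is 1 library, blue for day 0 and orange for day 1. Egr2 has no bar, Egr1 and Egr3 are higher at day 0 in the deposited lists, and Nr4a2 is higher at day 1 in the equal lists.

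In equal lists the genes differed from one another in which day carried more peaks. Nr4a2 had 6, 3 and 6 peaks at day 0 and 3, 4 and 4 at day 1 in deposited lists, but 1, 1 and 1 against 2, 3 and 4 in equal lists. Its equal-list peaks at day 1 included weak ones, such as 1 of 6 fragments and a fold enrichment of 4.39 in day 1 replicate 3. The same cut left out stronger Nr4a2 peaks at day 0, such as 1 of 35 fragments and a fold enrichment of 6.79 in day 0 replicate 1. Nr4a1 went the other way in equal lists, with 3 in every day 0 and 2 in every day 1 library, while its deposited counts were 4, 3 and 3 against 2, 3 and 2. Egr1 had 3, 4 and 3 peaks at day 0 and 2, 1 and 1 at day 1 in deposited lists, and Egr3 had 3, 3 and 2 against 1, 1 and 1. The days did not overlap in the equal-list counts of Nr4a2 and Nr4a1 and in the deposited counts of Egr1 and Egr3 (exact permutation p = 0.1 for each, n = 3 per day). They overlapped in the deposited counts of Nr4a2 and Nr4a1 (exact permutation p = 0.4 and p = 0.3). The share of all coding genes whose counts separated the days is not given. The Egr counts did not separate in equal lists, where Egr1 had 1, 1 and 1 against 2, 1 and 1 and Egr3 had 2, 1 and 2 against 0, 0 and 1 (exact permutation p = 1 and p = 0.2, n = 3 per day). Nr4a3 had 3, 2 and 2 peaks on each day in deposited lists, and 1, 2 and 1 against 2, 2 and 2 in equal lists (exact permutation p = 0.4, n = 3 per day). Ier2 had 5, 4 and 2 peaks against 1, 2 and 0 in deposited lists, and 1 in every equal list but that of day 1 replicate 3, which had 0.

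Regions called in all 6 libraries made up 36% of those at the 7 genes. Of the 25 regions, 9 had a peak in all 6 deposited lists, against 13.3% of all regions. They lay at Nr4a1 and Nr4a3 (2 each), Nr4a2 (3), Egr1 and Egr3 (1 each). Day 0 only regions, with a peak in 3 of 3 day 0 and 0 of 3 day 1 libraries, numbered 3, at Egr1, Egr3 and Ier2, against 17.5% of all regions, and their number rose to 5 without day 0 replicate 3. There was no day 1 only region, the mirror class, which made up 0.607% of all regions. No day 1 peak of any strength lay in 11 of the 25, against 59% of all regions. Regions called in a single library numbered 6, and their share over all regions is not given. With a stricter cutoff, a −log10 q of at least 5, day 0 only regions were 5, since Nr4a1 and Egr3 each gained 1. Equal lists held 13 regions of these genes, of which 5 were in all 6 libraries, against 22.8% of all regions, 1 was day 0 only and 1 day 1 only. Each of these single counts became 2 without day 0 replicate 2, the first also without day 1 replicate 3 and the second also without day 1 replicate 1. The shares of all regions at the stricter cutoff or with a library left out are not given. The changes in these counts thus cannot be read as particular to these genes.

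The regions lay close to their genes. Of the 25, 9 had their strongest summit inside the gene and 24 had it inside or within 10 kb of an end. The share of all regions that lay as close to a gene is not given, so closeness cannot be read as particular to these genes. The exception among the 25 lay 96.8 kb from Nr4a3 in day 0 replicate 1, with a pileup of 6 fragments and a fold enrichment of 3.98. No peak had 1 of the 7 genes as nearest beyond 100 kb. Genes with any region had a median of 3 and these 6 genes had 2 to 6.

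**Figure D2:**
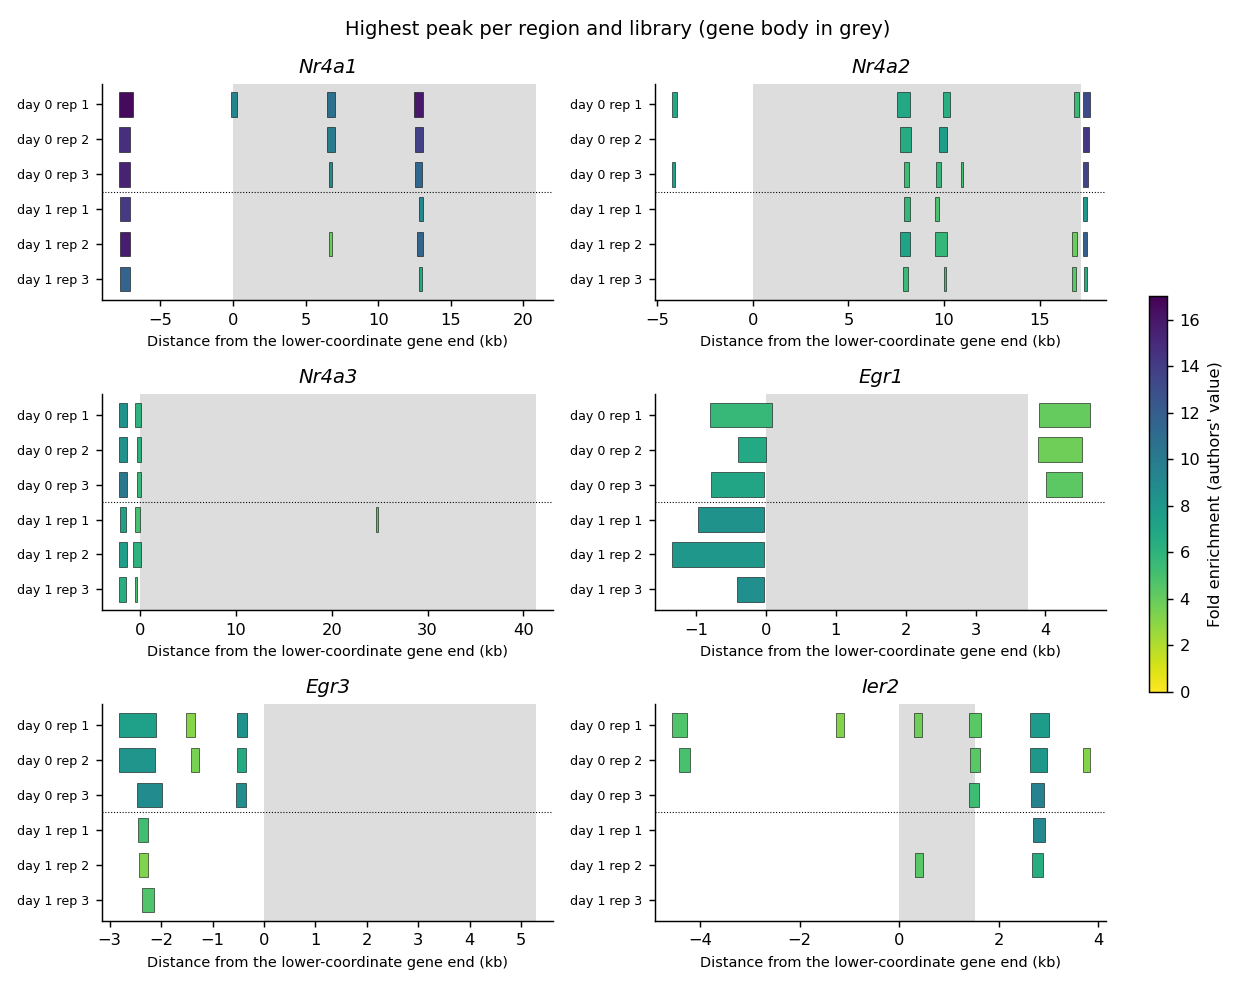
Highest peak per region and library at 6 of the genes, with the distance from the lower-coordinate gene end (kb) across and the 6 libraries down; the bar is the width of the peak, its colour the authors' fold enrichment, and grey the gene. Nr4a1 has its darkest bars below the gene in all 6 libraries, the Egr3 gene end is called only in the day 0 rows, and the Nr4a3 peak 96.8 kb away is left out.

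Nr4a1, also known as Nur77, had the highest peaks of the group. Its first region lay below the gene on chromosome 15, from 101246058 to 101247014, 7.44 kb from the gene end and 20386 bases before the start used here. The summit pileup, the number of fragments over the summit, was 107, 79 and 59 at day 0 and 63, 79 and 37 at day 1. Among the 9136 regions called in all 6 libraries, that height ranked at percentiles 97.4, 96.1 and 96.3 at day 0 and 99.3, 99.3 and 97.5 at day 1. All 3 day 1 values were above all 3 day 0 values, by a mean of 2.06 percentile points (exact permutation p = 0.1, n = 3 per day).

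The Nr4a1 promoter region, from 101266340 to 101267011, covered the window printed above and lay 8.05 kb inside the annotated span of the gene. The summit held 79, 59 and 37 fragments at day 0 and 21, 30 and 16 at day 1. The percentiles were 90.3, 87.8 and 79.6 at day 0, compared with 62.5, 73.1 and 64.3 at day 1, a mean difference of 19.3 points with no overlap (exact permutation p = 0.1, n = 3 per day). A difference of that size or more toward day 0 is not rare, as 12.1% of shared regions had a larger one. Ranked by fold enrichment instead of height, the days overlapped at this region. The outer Nr4a1 region, near the top of the ranking on both days, had a small excess toward day 1, and 45.8% of shared regions had a larger one.

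Another Nr4a1 region, inside the gene from 101260350 to 101260958 and 6196 bases before the start, was the only one of the 7 genes that was day 0 only in equal lists. Its pileups were 31, 30 and 20 at day 0, with fold enrichments of 10.8, 9.91 and 8.88. At day 1 only replicate 2 had a peak, with 7 fragments and a fold enrichment of 3.86. Of all equal-list regions 9.11% were day 0 only. A peak of 24 fragments at the outer gene end was called in day 0 replicate 1 alone.

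Nr4a2, also known as Nurr1 and a factor of dopamine neuron development, had 3 regions called in all libraries. The promoter region on chromosome 2, from 57124079 to 57124447, had its summits nearest to the end of Nr4a2, and it also lies within the predicted coding gene LOC105244150, which overlaps that end. Its pileups were 40, 36 and 24 at day 0, compared with 14, 26 and 9 at day 1, and its percentiles 45.3, 58.1 and 48.8 against 31.1, 63.2 and 17.3. Day 1 replicate 2 lay above all day 0 libraries and the other two below them, so the days overlapped (exact permutation p = 0.5, n = 3 per day).

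Inside Nr4a2, the region from 57114371 to 57115123 was the only day 1 only region of the 7 genes in equal lists, where 5.71% of all regions were so classed. The deposited lists held a peak there in all 6 libraries, with pileups of 35, 24 and 13 at day 0 and 14, 20 and 12 at day 1. Per 1000000 fragments these were 3.18, 2.95 and 1.42 against 2.85, 3.57 and 1.64, which overlap. The percentiles also overlapped, at 35.2, 28.9 and 11.8 against 31.1, 42.8 and 39.96 (exact permutation p = 0.2, n = 3 per day). The call thus rests on day 0 peaks that ranked below the 12556 strongest, and with lists of 20069 peaks and no day 1 replicate 3 no day 1 only region was found. The neighbouring region, from 57116347 to 57117116, lies inside Nr4a2 although its nearest gene end is that of LOC105244150. It had percentiles of 30.8, 41.5 and 14.9 at day 0 and 20.9, 26.1 and 39.96 at day 1, with equal day means of 29.1 and 29.0.

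Nr4a3, also known as NOR-1, had both its shared regions at and just below the gene on chromosome 4. The outer one, from 48042852 to 48043654 and 1.63 kb from the gene end, had pileups of 66, 52 and 43 at day 0 and 25, 35 and 19 at day 1. Its percentiles were 82.7, 82.0 and 87.3 against 74.3, 82.2 and 76.4 (exact permutation p = 0.2, n = 3 per day). The promoter region, from 48044358 to 48045171, ranked at 60.1, 62.2 and 45.8 at day 0 and 46.0, 68.4 and 59.3 at day 1 (exact permutation p = 0.9, n = 3 per day). The height of neither region separated the days.

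The position of the summit did separate them at the Nr4a3 promoter. Day 0 summits lay 200, 246 and 207 bases before the start and day 1 summits 561, 600 and 629 bases before it. The mean shift was 379 bases. These summits held 48, 38 and 23 fragments at day 0 and 17, 28 and 15 at day 1. The called peaks of day 0 replicate 1 and day 1 replicate 2 each spanned the summits of both days. Whether the open site itself moved was not tested. The comparison of summit positions was chosen after the values had been seen. Summits that do not overlap between days and differ by at least 300 bases in the mean occurred at 1 of the 9 shared regions of these genes and at 1.29% of all shared regions. Peaks overlapped the printed window in 5 libraries, and in day 1 replicate 3 the peak ended before it.

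At Nr4a1 and Nr4a2 the summits of the days overlapped in position. At Nr4a1 they lay 98, 97 and 23 bases before the start at day 0 and 49, 120 and 22 at day 1. At Nr4a2 they lay 233, 212 and 163 bases before it at day 0 and 139, 164 and 284 at day 1. Peaks overlapped the window in all 6 libraries at both genes, which 28.4% of 17491 coding genes with a window shared. The 4 CRE cores lay from 233 to 36 bases before the start at Nr4a1, from 200 to 107 at Nr4a2 and from 231 to 143 at Nr4a3.

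**Figure D3:**
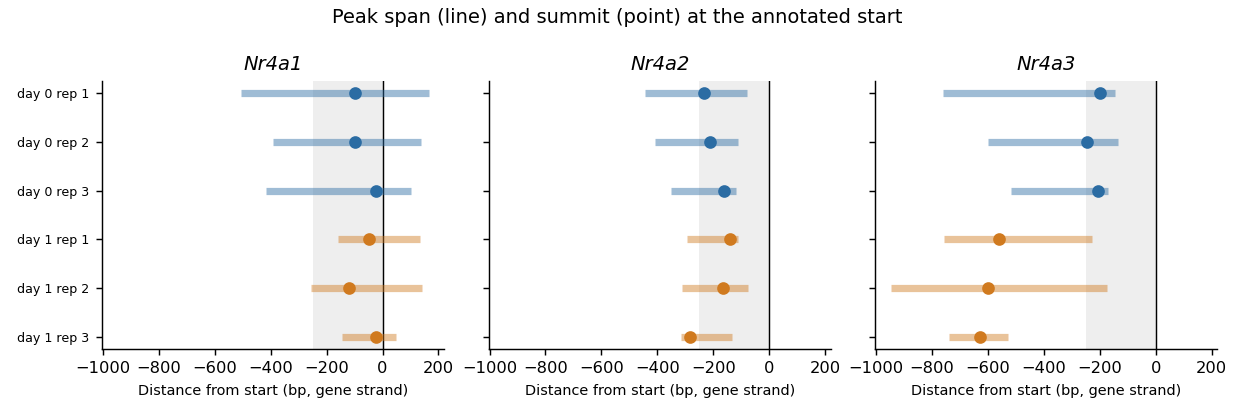
Peaks at the annotated starts of Nr4a1, Nr4a2 and Nr4a3, as distance from the start in bases on the gene strand (negative is upstream), with 1 row per library; lines are the called peak, points its summit, and grey the 250 bases before the start. Day 0 and day 1 summits mix at Nr4a1 and Nr4a2 and lie apart at Nr4a3, at 200 to 246 against 561 to 629 bases upstream.

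Egr1, which encodes the early growth response factor Zif268, had a wide region at its lower-coordinate end on chromosome 18, from 34859798 to 34861300. It was called as 1 to 3 separate peaks per library. The highest of them had 64, 68 and 45 fragments at day 0 and 31, 34 and 26 at day 1, with percentiles of 80.9, 92.6 and 89.0 against 85.2, 80.7 and 90.3 (exact permutation p = 0.7, n = 3 per day). Height rank thus overlapped between the days. Fold enrichments, which also move with depth, were 5.64, 6.72 and 6.98 at day 0, compared with 8.37, 7.95 and 8.61 at day 1, and their ranks among the shared regions were higher in all day 1 libraries. The other end of Egr1 carried a day 0 only region from 34865106 to 34865838, with 35, 32 and 25 fragments and low fold enrichments of 3.99, 3.75 and 4.26. None of its peaks was in an equal list.

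Egr2, also known as Krox20 and needed for Schwann cell myelination, had no peak in any of the 6 libraries. Its gene lies on chromosome 10 from 67534469 to 67542188, and all of its 5 annotated promoter windows were without a peak. The same held for 49.6% of coding genes with a window, and 30.1% of coding genes had no assigned region. The nearest summit above the gene was 170 kb away in each day 0 library, 171 kb away in day 1 replicate 2, and 235 and 244 kb away in day 1 replicates 1 and 3. The nearest summit below it was 310 kb away in each day 0 library and 349 kb away in each day 1 library. A lack of calls at these depths does not show that the gene was closed.

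Egr3, which is itself induced later than Egr1 in many cells, had the largest day difference among the 9 shared regions of these genes. The region on chromosome 14 from 70074495 to 70075338, 2.35 kb below the gene, had 42, 34 and 31 fragments at day 0 and 10, 7 and 9 at day 1. Its percentiles were 49.1, 53.7 and 68.2 at day 0, compared with 11.5, 0.843 and 17.3 at day 1, a mean difference of 47.1 points without overlap (exact permutation p = 0.1, n = 3 per day). A larger difference toward day 0 was found at 2.2% of shared regions. As the region was picked as the largest of the 9, that share does not show that it is unusual. Its day 1 peaks were weak, with −log10 q of 4.50, 1.35 and 3.31. The day 0 excess also held in rank by fold enrichment.

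Nearer to the Egr3 gene, a narrow day 0 only region lay 0.43 kb from its lower-coordinate end, from 70076767 to 70076976. It had 47, 28 and 30 fragments and fold enrichments of 8.30, 6.68 and 8.59. In equal lists it was present in 2 day 0 libraries and no day 1 library. Between these regions a weak peak was called in 2 day 0 libraries, with 17 and 14 fragments. Every region of Egr3 thus had more calls or a higher rank at day 0. Call counts also follow the shorter day 1 lists, as 59% of all regions had no day 1 peak in the deposited lists.

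Ier2 had 6 regions within 4.37 kb of a gene of 1522 bases on chromosome 8, the most for its length among the 7 genes. The strongest, 1.27 kb beyond the higher-coordinate end from 84663957 to 84664351, had 47, 41 and 36 fragments at day 0 and 26 and 21 in day 1 replicates 1 and 2. It had no call in day 1 replicate 3. The summits of the 5 libraries lay within 5 bases of each other. At 0.06 kb beyond that end, from 84662731 to 84662979, a day 0 only region had 26, 22 and 20 fragments and fold enrichments of 4.34, 4.43 and 5.32, and it was in no equal list. The other 4 were called in 1 or 2 libraries, with fold enrichments from 3.15 to 4.93.

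Over the 9 shared regions, the order of height was led by the Nr4a1 region below the gene, followed at day 0 by Egr1, the Nr4a1 promoter and the outer Nr4a3 region, with mean percentiles of 96.6, 87.5, 85.9 and 84.0. The last 3 overlapped in their ranges at day 0. At day 1 the means of the same 4 regions were 98.7, 85.4, 66.6 and 77.6, and the Nr4a1 promoter was below Egr1 and the outer Nr4a3 region in every library of that day. Height rank was higher in all day 0 libraries at 2 regions, the Nr4a1 promoter and Egr3, against 14.4% of all shared regions. It was higher in all day 1 libraries at 1, the outer Nr4a1 region, against 14.7%. These counts became 4 toward day 0 without day 1 replicate 2, and 2 toward day 1 without day 0 replicate 1 or day 1 replicate 1. By fold enrichment they were 1 and 3. The shares of all shared regions by fold enrichment or with a library left out are not given, so these counts have no background.

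**Figure D4:**
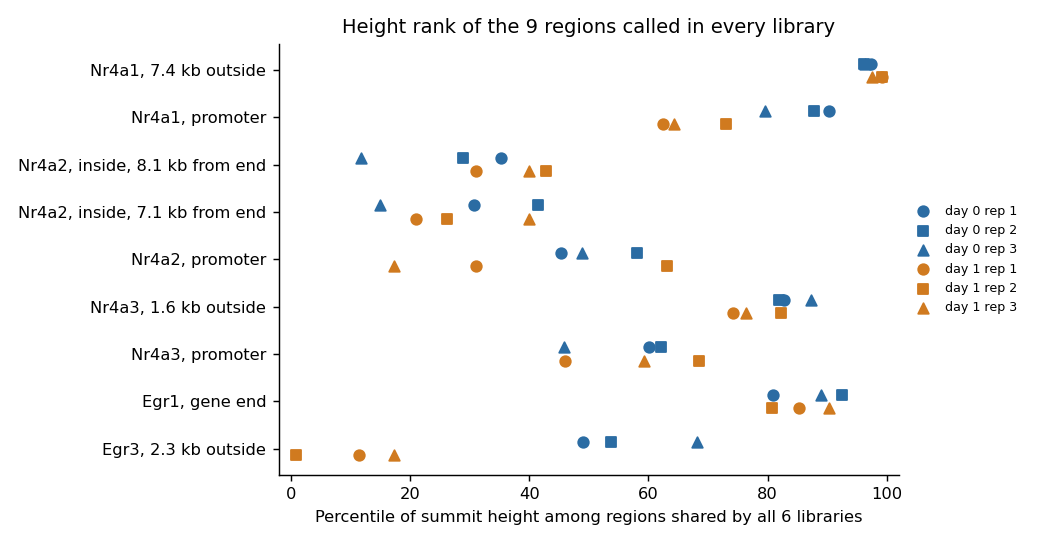
Percentile of summit height, across, of the 9 regions called in all 6 libraries, ranked within each library among the 9136 regions shared by all; each point is 1 library. Egr3 and the Nr4a1 promoter separate the days toward day 0, by 47.1 and 19.3 points in the mean, and the other regions overlap or differ by about 2 points.

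The second comparison sets the gene ends of these genes beside those of other immediate early genes. In deposited lists, 6, 5 and 5 of the 7 genes had a gene-end peak at day 0 and 3, 4 and 3 at day 1 (means 5.33 and 3.33, exact permutation p = 0.1, n = 3 per day). Those with one in all 6 libraries were Egr1, Nr4a2 and Nr4a3, against 29.3% of all coding genes. In equal lists it was 3 genes in every library of both days. Within 2 kb of a gene end the means were 4.67 and 3.67 (exact permutation p = 0.3), and without day 1 replicate 3 at 20069 peaks they were 4.33 and 3.5 (exact permutation p = 0.6). Within 1 kb the genes behind the equal counts differed, since Nr4a3 was among them in 1 day 0 and 3 day 1 libraries and Egr3 in 2 and 0. Egr1 and Nr4a2 were in all 6, against 19.4% of all coding genes. The Nr4a1 promoter is more than 1 kb from either gene end and is not in these counts.

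The other 48 immediate early genes, among them the AP-1 genes Fos and Jun, the phosphatase genes of the Dusp family and the mRNA decay gene Zfp36, showed the same deposited direction. A gene-end peak lay at 43, 42 and 43 of them at day 0 and 36, 40 and 33 at day 1. In equal lists the direction turned, with 25, 27 and 24 at day 0 and 30, 33 and 33 at day 1. In both, the days did not overlap (exact permutation p = 0.1 for each, n = 3 per day). In all 6 deposited lists 30 of the 48 had a gene-end peak, against 29.3% of all coding genes, and 20 had one in all 6 equal lists, against 19.4%. How the number over all coding genes differed between the days is not given for either type of list. Egr4, the remaining Egr family gene, was without one in every library, as were Ier3, Jund and Npas4.

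**Figure D5:**
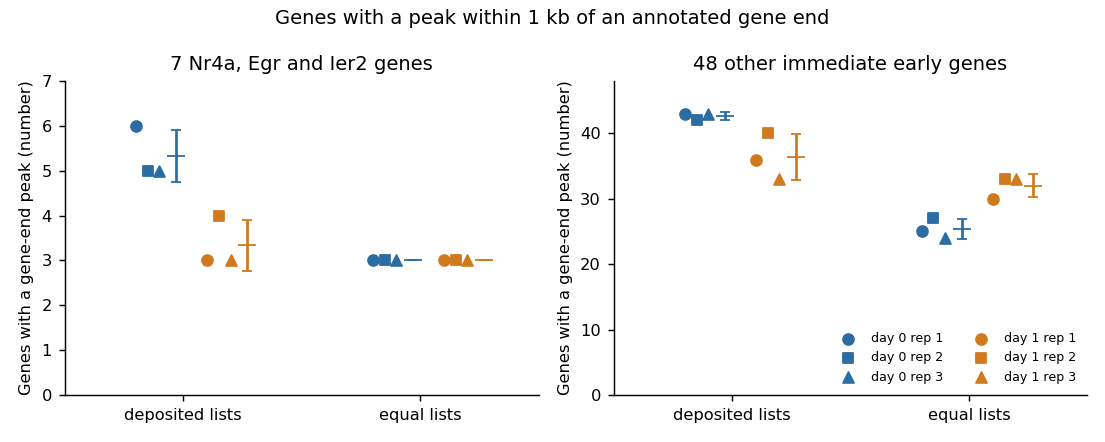
Number of genes with a peak within 1 kb of either gene end in each library, for the 7 genes (left) and 48 other immediate early genes (right); points are libraries, bars the mean and SD of 3. Day 0 is higher for both sets in deposited lists, while in equal lists the 7 genes stand at 3 throughout and the 48 are higher at day 1.

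Day 0 only regions of the equal lists lay near 12 of 44 other immediate early genes with a region (27.3%), against 12.7% of all coding genes with a region, and near 1 of 6 of the genes studied, Nr4a1. Day 1 only regions lay near 6 of 44, against 9.8%, and near 1 of 6, Nr4a2. In deposited lists 34 of 45 and 3 of 6 had a day 0 only region, against 37.6%, while 1 of 45 and 0 of 6 had a day 1 only region, against 2.2%. The other immediate early genes had a median of 7 regions per gene, against 3 for all genes with a region, and a gene with more regions has more chances to hold one of either class.

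Among other immediate early, cofactor and upstream genes, the most day 0 only regions of the equal lists lay near Dusp6, which dephosphorylates ERK, with 3, and near Myc, Phlda1, Ptgs2 and the ternary complex factor gene Elk3 with 2 each. Ptgs2 encodes cyclooxygenase-2, and its regions lay 7.35 and 43.3 kb away. Their fold enrichments averaged 11.9 ± 2.00 and 12.4 ± 2.05 over the day 0 libraries (SD, n = 3), with no day 1 peak of any strength. The regions near Myc, 38.2 and 58.6 kb away, also had none. The most day 1 only regions lay near the antiproliferative gene Btg1 and the pseudokinase gene Trib1 with 2 each, and Btg2, Ccn1 and Hbegf followed with 1, ties being taken in alphabetical order. The Trib1 region 50.1 kb away, with a fold enrichment of 10.6 ± 3.19 (SD, n = 3), was the only one of these 7 with no day 0 peak of any strength.

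Among genes that act with the Nr4a and Egr proteins, Nab2, a corepressor of Egr1, had a gene-end peak in all 6 deposited lists, and the genes of the nuclear receptor partners Rxrb and Rxrg in none. Of the 5 such genes 3, 2 and 2 had one at day 0 and 1, 2 and 1 at day 1, and in equal lists Nab2 was the 1 gene in every library. Of 11 upstream regulator genes, 10, 9 and 8 had a gene-end peak in deposited day 0 and 8, 8 and 7 in day 1 lists, and Creb1, Crtc1, Crtc2, Elk1, Elk4 and Mrtfa had one in all. Srf had none. In equal lists the numbers went the opposite way, with 4, 4 and 5 in day 0 and 5, 6 and 7 in day 1 libraries, with an exact permutation p of 0.2 against 0.3 in the deposited lists (n = 3 per day).

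The summed summit height of the 7 genes was 80.8, 85.5 and 52.6 fragments per 1000000 at day 0 and 51.8, 58.2 and 22.0 at day 1. Among 4277 other genes with at least 5 regions, those whose summed height followed it most closely over the 6 libraries were Hes1, Dnaaf5, Fbxo4, Mrpl39 and Chd9, with Pearson correlations of 0.997 to 0.999. The 6 points share library depth and signal, and 1531 genes had a correlation above 0.9.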

How the data were processed

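Peak lists were deposited for 6 ATAC-seq libraries, 3 per day. The submitters' processing notes name mm10, Bowtie2 2.4.4 and MACS2 2.2.7.1 among other tools. Per the file headers, MACS2 called peaks in each library alone, in paired-end mode, without a control and at a q cutoff of 0.05. The authors' pileup column is a signal, the whole number of fragments over the summit, not scaled to depth. The deposited −log10 p and −log10 q and the fold enrichment, a ratio to local background, are within a library and served to rank, filter and describe peaks.

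Whole fragments, not cut sites, are piled up in this mode. Peaks on the autosomes and sex chromosomes were assigned to RefSeq GRCm38 coding genes, and all listed genes matched, 4 by an older symbol. Overlapping peaks (1 bp) of all libraries were merged into regions. Where a library had several peaks in a region, the highest was used. Exact two-sided permutation over libraries was used for counts (Python 3.11.15, pandas 2.3.3). Percentiles rank heights among regions called in all libraries, and counting error limits a summit of few fragments. Scripts were tested on simulated data. The gene table has no exons or UTRs, so such positions are not given. The genes, lists and tests were chosen with earlier results of these data known. Named regions are those called in 3 of 3 libraries of a day, and other named genes had the most regions of a class.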

Additional observations from a re-analysis of the deposited data

How the results depend on the processing

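Of 112 alternative values for 13 results, 15 counts moved by over 1.5 times and 1 difference turned its sign, and the causes were not tested. Differences were tallied only by a turn of sign, so changes in their size are not in this tally. The difference in peaks per library (day 0 minus day 1) in equal lists was −0.33 and turned to 1.67 without day 1 replicate 3 at 20069 peaks, an alternative chosen after the data had been seen. It was −2.33 with lists ranked by fold enrichment, and 0 with lists of 6278 peaks or without day 1 replicate 3. The difference in the 7 genes with a gene-end peak in equal lists, 0, was 1 within 2 kb and 0.83 without day 1 replicate 3 at 20069 peaks. Day 0 only regions in deposited lists (3) were 5 at −log10 q of at least 5 and 3 to 5 when single libraries were left out. In equal lists, day 0 only regions (1) were 0 with lists of 6278 peaks, 2 without day 1 replicate 3 at 20069 peaks, and 1 to 2 when single libraries were left out. Day 1 only regions there (1) were 0, 0 and 1 to 2. Shared regions ranked higher at day 0 (2) were 1 by fold enrichment and 2 to 4 when single libraries were left out, and those higher at day 1 (1) were 3 and 1 to 2. For none of these alternative region counts is the share over all regions given.

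Deviations of same-numbered libraries correlated at −0.036, 0.054 and 0.008 over 9136 shared regions, which gave no sign of pairing by replicate number. Such values cannot show that same-numbered libraries shared no culture or batch. With the replicate block, the difference in peaks of 8.67 in deposited lists had an exact sign-flip p of 0.25, the smallest possible, and that in equal lists, −0.33, a p of 1. The blocked differences in genes with a gene-end peak (deposited, equal lists) were 2 and 0 for the 7 genes and 6.33 and −6.67 for the 48 others. Since 3 libraries against 3 give no exact p under 0.1, no call could be made or lost. Depth limits what a missing peak shows, above all at day 1.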
